A study of Homo sapiens with 6 samples.

Results

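The proteasome genes of human cells were followed here in T98G, an established glioblastoma line, transfected with constructs meant to raise or to lower the splicing kinase SRPK1. They were all protein-coding genes with a symbol made of PSMA, PSMB, PSMC, PSMD, PSME or PSMF and a number, 44 of the 60483 gene entries in the count tables. Poly(A) RNA was sequenced from 3 groups with 2 libraries each. The oeSRPK1 cells were transfected with full-length SRPK1 cDNA in pcDNA3.1, the shSRPK1 cells with a short hairpin against SRPK1 in pLKO.1, and the NT cells were left untreated; both transfections were transient and used Lipofectamine 2000. No library of cells transfected with an empty vector was analysed here, so transfection and construct cannot be told apart in a comparison with NT, and oeSRPK1 and shSRPK1 differ in vector as well as insert. The submitters describe both libraries of a group as biological replicates; whether they were grown and transfected separately is not said, and p-values here reflect only how far these libraries differ, which may be a technical spread.

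The proteasome is the protease that degrades ubiquitin-tagged proteins. Its 20S core is a barrel of outer α rings (PSMA genes) and inner β rings (PSMB genes), and the β subunits PSMB5, PSMB6 and PSMB7 carry the proteolytic sites. The 19S cap recognises the ubiquitin chain and feeds the protein into the core, with a ring of ATPases (PSMC genes) and a set of non-ATPase subunits (PSMD genes). Under interferon, cells replace the catalytic subunits by PSMB8, PSMB9 and PSMB10 and make the PA28 activator from PSME1 and PSME2; this immunoproteasome is known for producing peptides that fit MHC class I molecules, and its expression in glioma cells, as in most cells outside the immune system, is inducible.

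Gene counts summed to between 3891549 reads in oeSRPK1 2 and 22691215 reads in oeSRPK1 1, of which proteasome genes took 0.386% to 0.446%. The NT libraries differed from each other by a median of 0.13 on the log2 scale per tested gene, the oeSRPK1 libraries by 0.16 and the shSRPK1 libraries by 0.27. SRPK1 itself, in gene counts scaled by TMM to a common library size (normalised CPM), had 190.3 and 168.0 in oeSRPK1, 113.1 and 140.1 in shSRPK1 and 152.5 and 140.4 in NT. The groups did not overlap, though shSRPK1 and NT were close (140.1 against 140.4). Only oeSRPK1 against shSRPK1 passed the test (log2 fold change 0.50 ± 0.14 SE, edgeR adjusted p = 0.0377). Against NT the edgeR adjusted p was 0.175 for oeSRPK1 and 0.360 for shSRPK1. The call between the transfected groups held in 8 of 15 alternative fits. It was lost with replicate number as a further term, with the compared libraries alone, and with all libraries thinned to 3891549 reads. Leaving out any 1 of the NT or oeSRPK1 libraries also lost it. Over the 15 alternative fits the log2 fold change of SRPK1 between these groups ran from 0.33 to 0.63. The glioma markers VIM and CD44 were abundant in every library, while S100B and SOX2 had no read in any library and GFAP had 1 read in all. The library oeSRPK1 2 stood apart: 8 muscle genes summed to 2663.3 normalised CPM in it, against 223.4 in oeSRPK1 1, 0.604 and 11.9 in shSRPK1, and 0.485 and 0.777 in NT; their part in the results below was not tested, and values without oeSRPK1 2 are given.

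Promoter windows were searched for motifs of the factors that are known to act on these genes. Windows of 300 bases, from 250 bases before to 49 after the annotated RefSeq start (GRCh38.p14), were at hand for 39 of the 44 genes. The interferon-stimulated response element core GAAANNGAAA, searched on both strands, lay in 3.57% of all 35116 windows of the genome, and among the proteasome genes in windows of PSMB8, PSMB10, PSME1, PSME2, PSMB4 and PSMA4. In the first 4 of these it had the same spelling, GAAAGCGAAA, which 35 windows of the genome held (0.0997%) and none of those of the 29 genes of the constitutive core, the cap and its chaperones that had a window. This spelling was chosen after the sequences had been seen, and a match is a description, not a site or a cause. Both forms match the same bases, so the counts are nested. One window of each of the 5 inducible genes is printed, because 4 of them carry this shared stretch and that of PSMB9 lacks it; the window of the first annotated start of PSMB8 (chr6:32844630-32844929) also lacks it and is not printed. Capitals mark the match, and TTTCGCTTTC is the same stretch read on the other strand. The windows are PSMB10 (chr16:67936801-67937100, minus strand), PSME2 (chr14:24146561-24146860, minus strand), PSME1 (chr14:24135944-24136243, plus strand), the second annotated start of PSMB8 (chr6:32843998-32844297, minus strand) and PSMB9 (chr6:32853942-32854241, plus strand).
PSMB10: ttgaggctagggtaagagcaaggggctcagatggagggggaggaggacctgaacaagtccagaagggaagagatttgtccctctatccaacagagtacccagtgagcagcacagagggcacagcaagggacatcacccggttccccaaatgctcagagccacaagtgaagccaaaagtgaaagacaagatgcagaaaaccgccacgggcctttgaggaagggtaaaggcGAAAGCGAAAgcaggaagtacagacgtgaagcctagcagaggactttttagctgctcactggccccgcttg
PSME2: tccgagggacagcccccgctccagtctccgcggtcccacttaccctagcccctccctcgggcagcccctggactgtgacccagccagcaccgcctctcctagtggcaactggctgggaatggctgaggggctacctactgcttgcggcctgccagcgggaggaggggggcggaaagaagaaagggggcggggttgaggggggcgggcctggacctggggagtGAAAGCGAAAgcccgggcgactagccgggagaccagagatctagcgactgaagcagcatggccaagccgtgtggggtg
PSME1: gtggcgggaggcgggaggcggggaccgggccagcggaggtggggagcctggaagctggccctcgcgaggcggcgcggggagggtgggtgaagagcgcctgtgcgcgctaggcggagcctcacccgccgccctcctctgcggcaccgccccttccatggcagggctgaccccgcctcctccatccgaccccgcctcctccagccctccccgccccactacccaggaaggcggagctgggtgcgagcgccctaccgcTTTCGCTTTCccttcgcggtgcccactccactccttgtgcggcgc
PSMB8: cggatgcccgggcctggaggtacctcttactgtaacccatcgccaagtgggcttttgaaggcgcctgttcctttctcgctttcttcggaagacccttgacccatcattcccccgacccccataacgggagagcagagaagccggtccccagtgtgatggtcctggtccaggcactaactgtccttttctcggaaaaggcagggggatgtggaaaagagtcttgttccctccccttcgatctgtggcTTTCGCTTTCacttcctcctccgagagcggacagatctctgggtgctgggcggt
PSMB9: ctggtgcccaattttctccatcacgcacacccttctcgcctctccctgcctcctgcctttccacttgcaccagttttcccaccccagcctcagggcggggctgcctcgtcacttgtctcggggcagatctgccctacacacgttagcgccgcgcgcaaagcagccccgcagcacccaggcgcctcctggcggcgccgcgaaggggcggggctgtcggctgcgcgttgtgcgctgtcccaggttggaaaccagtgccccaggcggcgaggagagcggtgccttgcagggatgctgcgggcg

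With the start base counted as 0, the stretch ran from -21 to -12 in PSMB10 and from -28 to -19 in PSME2, both upstream of the start. It ran from -4 to 5 in PSMB8 and from 5 to 14 in PSME1, on the opposite strand in each. The core of PSMB4, a structural β subunit, lay at -68 to -59, and that of PSMA4, an α subunit, at -240 to -231. The PSMB9 window held neither form; PSMB9 is known to share its upstream region with TAP1, the peptide transporter gene, and no match in this window says only that these letters are absent from it. Of the other motifs searched on both strands, the gamma-activated site TTCNNNGAA was in windows of 8 proteasome genes and 7.66% of all windows. The antioxidant response element core TGACNNNGC was in 13 genes and 13.3% of windows, and the CCAAT box in 19 genes and 34.6%. For every motif a gene was counted if any of its windows matched, and the 39 genes had 47 windows. Counts of genes and shares of windows are thus not on like terms.

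**Figure D1:**
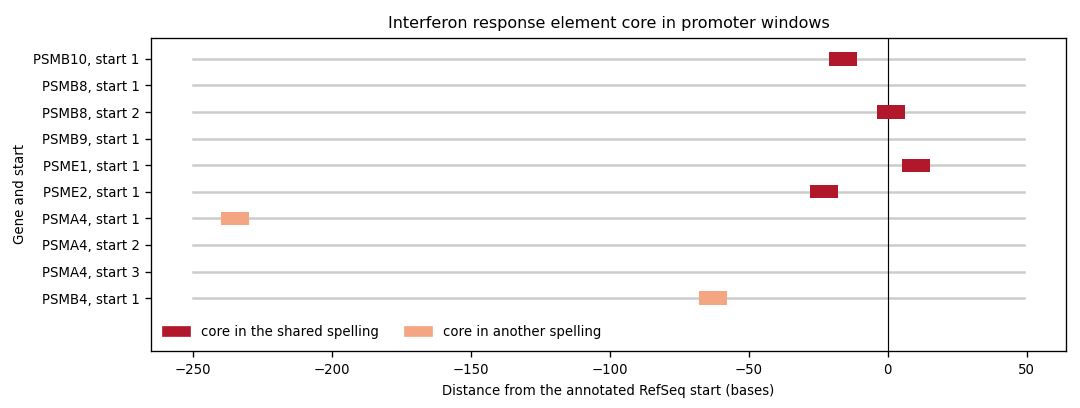
Position of the interferon response element core (GAAANNGAAA, both strands) in promoter windows, in bases from the annotated RefSeq start (vertical line), for the 5 inducible genes and the 2 other genes that hold it. Grey lines are the windows, dark red boxes the spelling shared by PSMB10, PSMB8, PSME1 and PSME2, and light boxes other spellings; the windows of PSMB9 and of the first start of PSMB8 have no box, and the shared spelling lies between -28 and 14 in all 4 genes.

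In oeSRPK1 cells 4 of the 5 inducible genes, PSMB8, PSMB10, PSME1 and PSME2, were higher than in NT cells, and PSMB9 did not pass the test. Among the constitutive subunits PSMB7 was higher, PSMB6, PSMD1 and PSMD11 were lower, and the others did not pass. Of the 42 proteasome genes with enough reads to test, 5 were higher in oeSRPK1 than in NT at an edgeR adjusted p under 0.05 (PSME2, PSMB8, PSMB7, PSME1 and PSMB10) and 3 were lower (PSMD1, PSMD11 and PSMB6). Of all 14732 genes tested, 20.6% were called, 11.2% higher and 9.45% lower, so the share of the proteasome genes as a whole was near the background. The 5 inducible genes had a median log2 fold change of 0.72. The 31 constitutive 20S and 19S subunits, the 3 PSMD-named chaperones left out, had a median of -0.10, with 24 of 31 below 0. The median over all genes tested was -7e-04. These counts describe the lists; no test over a list was made.

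**Figure D2:**
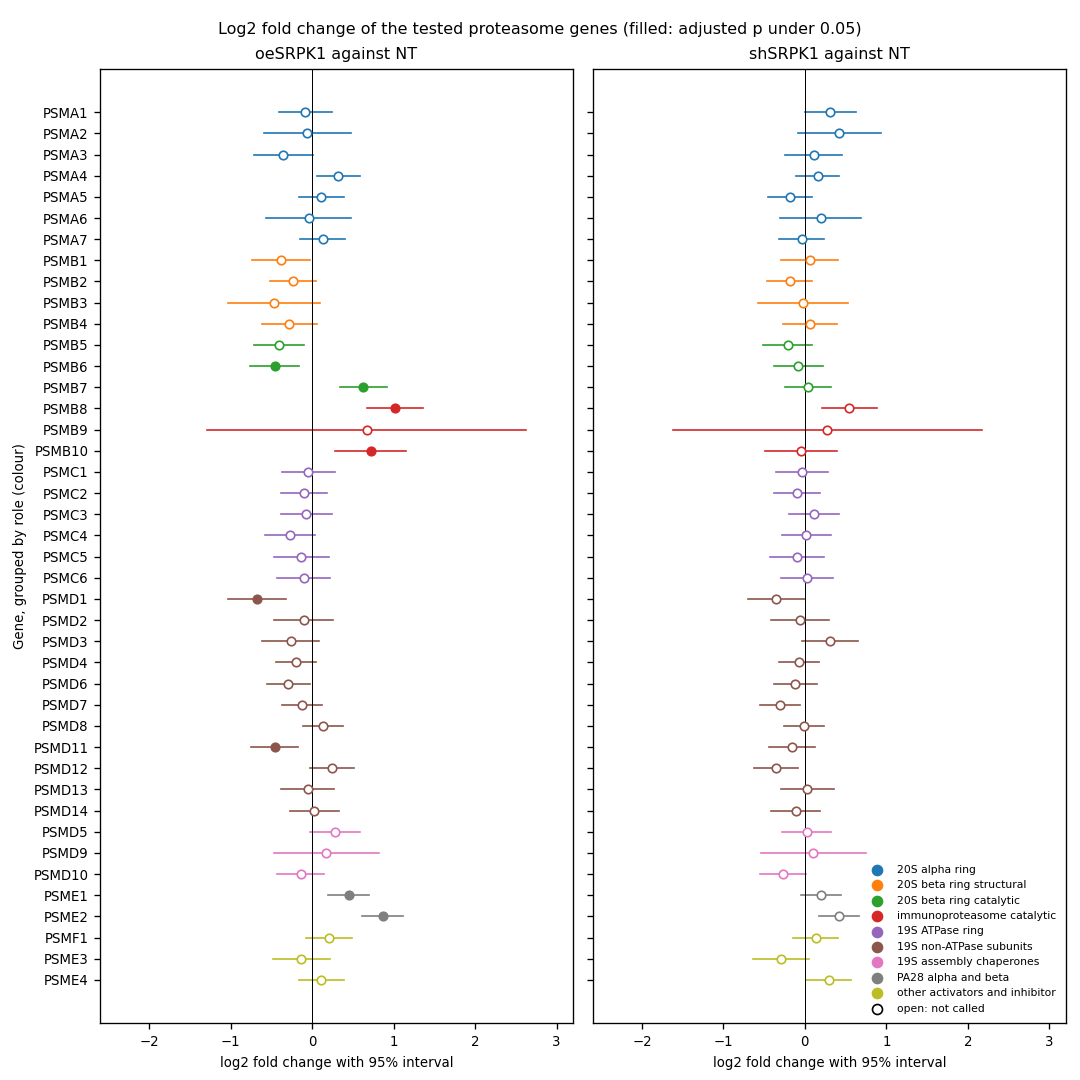
Log2 fold change of the 42 tested proteasome genes in oeSRPK1 against NT (left) and shSRPK1 against NT (right), with 95% intervals from edgeR, coloured by role; filled points have an adjusted p under 0.05. In the left panel PSMB8, PSMB10, PSME1, PSME2 and PSMB7 are filled to the right of 0 and PSMB6, PSMD1 and PSMD11 to the left, and the right panel has no filled point.

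PSMB8, the inducible counterpart of PSMB5, gave the widest called change in the family. It had 143.5 and 141.9 normalised CPM in oeSRPK1, 89.3 and 117.4 in shSRPK1 and 66.9 and 74.4 in NT. Both oeSRPK1 libraries lay above every other library, both shSRPK1 libraries lay between, and no groups overlapped. The mean was 142.7 ± 1.13 in oeSRPK1 and 70.7 ± 5.33 in NT (SD, n = 2 each), a fold of 2.02 (95% interval 1.59 to 2.56, edgeR adjusted p = 0.00430). In shSRPK1 against NT the log2 fold change was 0.55 ± 0.15, with an edgeR adjusted p of 0.0568, and in oeSRPK1 against shSRPK1 it was 0.47, with an adjusted p of 0.0543. PSMB8 lies on chromosome 6 from 32840717 to 32844703 (GRCh38, minus strand) in the MHC region, next to PSMB9, with which it shares 139 exonic bases on opposite strands. MHC genes have near-identical copies on alternate haplotype sequences, and the sources used here do not say whether these were in the alignment, so the levels of PSMB8 and PSMB9 may be understated.

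PSME2, the β subunit of the PA28 activator that opens the gate of the core, had 166.1 and 170.9 normalised CPM in oeSRPK1, 118.5 and 127.7 in shSRPK1 and 94.2 and 90.3 in NT. The 3 groups did not overlap and stood in the same order as for PSMB8. PSME2 was 1.83-fold higher in oeSRPK1 than in NT (95% interval 1.54 to 2.17, edgeR adjusted p = 0.00238) and was also higher than in shSRPK1 (log2 fold change 0.45 ± 0.11, adjusted p = 0.0228). In shSRPK1 against NT the value was 0.42 ± 0.11 with an adjusted p of 0.0510, just outside the threshold. PSME1, the α subunit of the same ring, had 133.4 and 130.0 normalised CPM in oeSRPK1, 111.5 and 109.6 in shSRPK1 and 92.3 and 100.9 in NT. It showed the same order with no overlap and a smaller change, 1.36-fold in oeSRPK1 against NT (95% interval 1.15 to 1.62, edgeR adjusted p = 0.0244). PSME1 and PSME2 are neighbours on chromosome 14, at 24136158 to 24138967 on the plus strand and 24143362 to 24147570 on the minus strand. Reads in annotated pseudogenes amounted to 4.52% of those of PSME2, the highest share in the family.

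PSMB10, the counterpart of PSMB7, had 25.7 and 27.1 normalised CPM in oeSRPK1, 13.2 and 17.9 in shSRPK1 and 17.8 and 14.3 in NT. The oeSRPK1 libraries lay above all others, and shSRPK1 and NT overlapped. The log2 fold change was 0.72 ± 0.19 in oeSRPK1 against NT (edgeR adjusted p = 0.0334) and 0.76 ± 0.19 against shSRPK1 (adjusted p = 0.0264), and in shSRPK1 against NT it was -0.05, with a 95% interval of the fold from 0.714 to 1.31. Part of its principal transcript, 45.3%, overlaps another gene on the same strand, and how reads in such stretches were counted is not given in the sources used here. PSMB9, the counterpart of PSMB6, was the exception among the inducible genes. It had 8.95 and 34.9 normalised CPM in oeSRPK1, 9.44 and 20.5 in shSRPK1 and 14.9 and 9.82 in NT. The second library was the higher one in both transfected groups, the groups overlapped, and the test gave 0.67 ± 0.76 in oeSRPK1 against NT (edgeR adjusted p = 0.581). Without oeSRPK1 2, the library with the most muscle transcripts and the fewest reads, the log2 fold change of PSMB9 was -0.45. The oeSRPK1 1 library, which stayed in that fit, held muscle transcripts too. They summed to 223.4 normalised CPM in it, against 0.485 and 0.777 in NT.

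**Figure D3:**
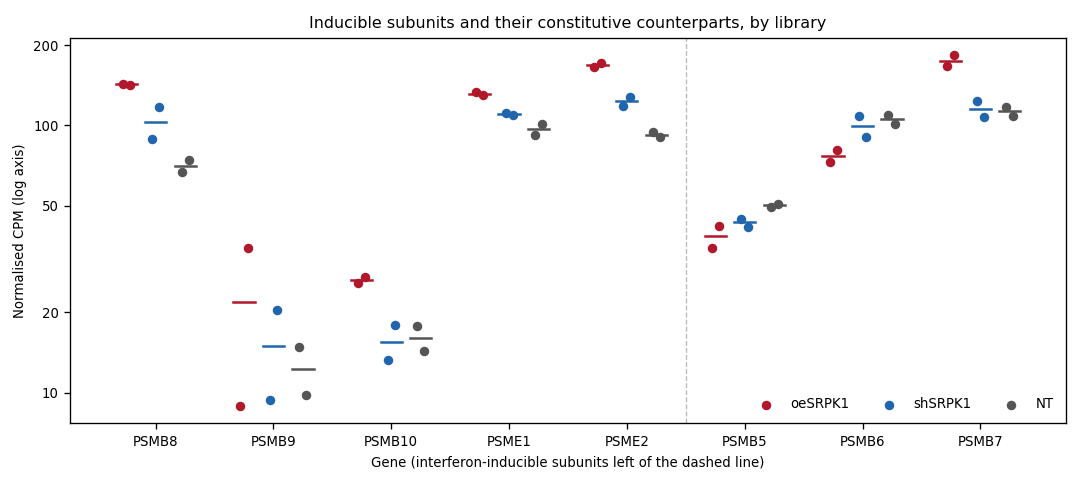
Normalised CPM (log axis) of the 5 inducible genes, left of the dashed line, and of PSMB5, PSMB6 and PSMB7 in each library; points are libraries and bars the mean of the 2 libraries of oeSRPK1 (red), shSRPK1 (blue) and NT (grey). PSMB8, PSME1 and PSME2 stand highest in oeSRPK1 and lowest in NT, whereas the 2 points of PSMB9 in oeSRPK1 lie at 8.95 and 34.9.

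The constitutive catalytic subunits did not move together. PSMB7, which carries the trypsin-like site, had 166.7 and 183.3 normalised CPM in oeSRPK1, 123.6 and 107.8 in shSRPK1 and 117.7 and 108.2 in NT. The oeSRPK1 libraries lay above the other 4, and the log2 fold change was 0.63 ± 0.12 against NT (edgeR adjusted p = 0.0122) and 0.59 ± 0.12 against shSRPK1 (adjusted p = 0.0146). PSMB6, which carries the caspase-like site, had 73.3 and 80.7 normalised CPM in oeSRPK1, 108.9 and 90.6 in shSRPK1 and 109.8 and 101.1 in NT. The oeSRPK1 libraries were lowest, without overlap, and PSMB6 fell by 0.46 ± 0.13 on the log2 scale against NT (edgeR adjusted p = 0.0424). PSMB5, which carries the chymotrypsin-like site and is the target of bortezomib, had 34.9 and 42.1 normalised CPM in oeSRPK1, 44.9 and 41.9 in shSRPK1 and 49.5 and 51.1 in NT. Its oeSRPK1 libraries lay below both NT libraries, but its fold of 0.756 (95% interval 0.611 to 0.935) had an edgeR adjusted p of 0.0663.

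Levels of different genes were set against each other as normalised CPM per kilobase of the principal transcript. PSMB8 was 4.73 and 3.88 times as abundant as PSMB5 in oeSRPK1, 2.29 and 3.23 times in shSRPK1 and 1.56 and 1.68 times in NT. Per kilobase of all annotated exons the ratios were 2.42 and 1.98 in oeSRPK1, 1.17 and 1.65 in shSRPK1 and 0.796 and 0.859 in NT. Which of PSMB8 and PSMB5 stood higher in NT thus depended on the length used. These ratios did not overlap between groups; each pair of groups gave a two-sided exact permutation p of 0.333, the smallest that 2 against 2 libraries allow. PSMB9 per PSMB6 was 0.133 and 0.471 in oeSRPK1, 0.0944 and 0.246 in shSRPK1 and 0.147 and 0.106 in NT, with overlap between all groups. PSMB10 per PSMB7 was 0.124 and 0.119 in oeSRPK1, 0.0860 and 0.134 in shSRPK1 and 0.122 and 0.107 in NT, so the higher PSMB10 in oeSRPK1 came with a higher PSMB7 and the ratio overlapped between groups. PSMB8, PSMB9 and PSMB10 together made up 36.1% and 38.1% of the 6 catalytic subunits in oeSRPK1, 26.2% and 36.9% in shSRPK1 and 24.5% and 25.2% in NT. Per kilobase of all annotated exons this share was 28.3% and 28.7% in oeSRPK1, 19.1% and 27.5% in shSRPK1 and 17.8% and 18.3% in NT. Every transfected library exceeded both NT libraries, and the shSRPK1 libraries differed from each other by more than shSRPK1 1 differed from NT. In RNA from whole cultures, a few cells with a high level and many cells with a slightly raised level cannot be told apart, nor can fewer cells of a type and less RNA per cell.

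**Figure D4:**
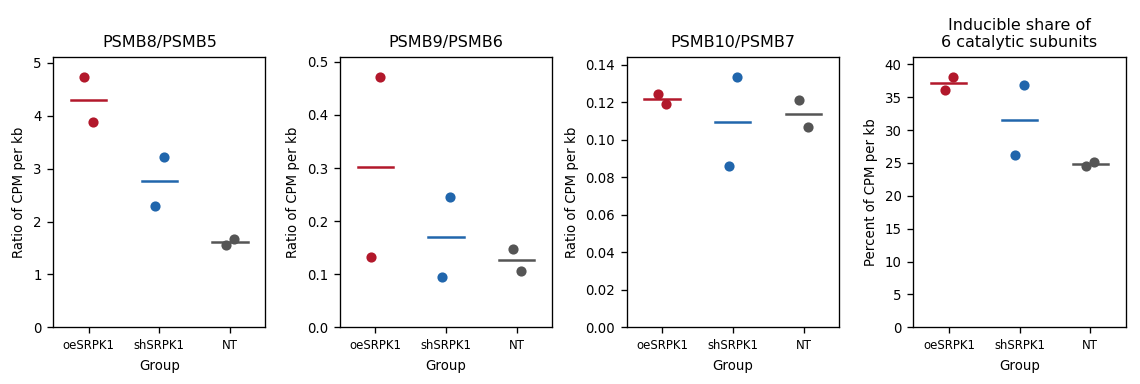
Ratio of each inducible catalytic subunit to its constitutive counterpart, and the inducible share of the 6 catalytic subunits, in normalised CPM per kilobase; points are libraries and bars group means, for oeSRPK1, shSRPK1 and NT. PSMB8/PSMB5 separates the 3 groups (3.88 to 4.73 in oeSRPK1, 2.29 to 3.23 in shSRPK1 and 1.56 to 1.68 in NT), and the other 2 ratios overlap between groups.

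The remaining core subunits were not called in any comparison. The 7 α subunits, which form the gate of the barrel, had log2 fold changes from -0.35 to 0.32 in oeSRPK1 against NT, with 4 below 0 and 3 above. PSMA7, the most abundant proteasome gene per kilobase in NT, had 210.2 and 240.7 normalised CPM in oeSRPK1, 195.8 and 204.8 in shSRPK1 and 209.8 and 201.2 in NT. Its oeSRPK1 libraries lay only just above NT (edgeR adjusted p = 0.470). The lowest α subunit was PSMA6, at 6.32 ± 1.02 normalised CPM per kilobase in oeSRPK1, 7.20 ± 0.327 in shSRPK1 and 6.25 ± 0.965 in NT (SD, n = 2 each). Of its principal transcript, 81.0% is shared with an annotated readthrough gene on the same strand, and the share is 53.2% for PSMA1 and 52.5% for PSMA2; the part of this overlap in their levels was not tested. The 4 structural β subunits were all below 0 in oeSRPK1 against NT, from -0.46 to -0.23. The highest of them per kilobase, PSMB4, had 147.2 and 166.0 normalised CPM in oeSRPK1, 222.1 and 174.3 in shSRPK1 and 194.2 and 185.3 in NT, and the lowest, PSMB2, had 99.8 and 114.5 in oeSRPK1, 115.5 and 105.2 in shSRPK1 and 130.8 and 120.5 in NT. Both had oeSRPK1 libraries below both NT libraries, with edgeR adjusted p-values of 0.209.

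In the 19S cap 2 of 17 subunits (11.8%) were lower in oeSRPK1 than in NT, against 9.45% of all genes tested. None was higher, against 11.2% of all genes, so the share lower was near the background. PSMD1, a large scaffold subunit of the cap, had 96.9 and 122.3 normalised CPM in oeSRPK1, 145.2 and 127.3 in shSRPK1 and 188.1 and 159.8 in NT. The groups stood apart in that order, and PSMD1 fell by 0.67 ± 0.15 on the log2 scale in oeSRPK1 against NT (edgeR adjusted p = 0.0205), the widest fall of the family; in shSRPK1 against NT the value was -0.35, with an adjusted p of 0.173. PSMD11, a subunit of the lid that clamps cap and core together, had 89.9 and 98.8 normalised CPM in oeSRPK1, 114.5 and 117.4 in shSRPK1 and 140.0 and 119.0 in NT. It was lowest in both oeSRPK1 libraries and fell by 0.46 ± 0.12 against NT (edgeR adjusted p = 0.0348). The other 9 non-ATPase subunits had values from -0.29 to 0.24 and none was called in oeSRPK1 against NT.

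The 6 ATPase subunits, which unfold the substrate, all lay between -0.27 and -0.04 in oeSRPK1 against NT, and none was called in any comparison. PSMC3, the highest of them per kilobase, had 123.0 and 127.7 normalised CPM in oeSRPK1, 156.0 and 127.6 in shSRPK1 and 139.7 and 123.7 in NT, with overlap. PSMC1, the lowest, had 48.4 and 56.6 in oeSRPK1, 55.0 and 49.6 in shSRPK1 and 58.4 and 49.2 in NT; 82.1% of its principal transcript overlaps NRDE2 on the opposite strand, and the strand setting of the counts was not given in the sources used here. PSMD7, a lid subunit and the highest PSMD gene per kilobase, had 154.5 and 162.3 normalised CPM in oeSRPK1, 137.3 and 142.6 in shSRPK1 and 172.2 and 173.0 in NT. Its shSRPK1 libraries were the lowest and its NT libraries the highest, with adjusted p-values of 0.438 in oeSRPK1 against NT and 0.110 in shSRPK1 against NT (edgeR). The remaining 3 genes named PSMD are chaperones that assemble the cap and leave it. PSMD10, also known as gankyrin, was the most abundant of these, at 54.6 and 54.8 normalised CPM in oeSRPK1, 54.4 and 45.7 in shSRPK1 and 61.8 and 59.0 in NT. PSMD9 was the lowest of all tested members per kilobase, at 4.99 and 3.62 in oeSRPK1, 3.70 and 4.97 in shSRPK1 and 3.59 and 4.38 normalised CPM in NT; PSMD5 had a log2 fold change of 0.28 in oeSRPK1 against NT, and none of these 3 was called.

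Activators other than PA28αβ, and the inhibitor, were not called in any comparison. PSME3, the nuclear PA28γ activator, which is not induced by interferon, had 84.1 and 106.2 normalised CPM in oeSRPK1, 77.3 and 92.2 in shSRPK1 and 109.0 and 98.4 in NT. Its oeSRPK1 libraries overlapped both other groups, and the shSRPK1 libraries lay below NT (log2 fold change -0.29, edgeR adjusted p = 0.238). PSME4, the PA200 activator, had 104.5 and 99.0 in oeSRPK1, 110.4 and 120.4 in shSRPK1 and 101.4 and 87.1 in NT. The inhibitor PSMF1 (PI31) had 123.9 and 127.2 normalised CPM in oeSRPK1, 108.2 and 129.5 in shSRPK1 and 109.4 and 107.6 in NT; its oeSRPK1 libraries lay above NT, with a fold of 1.16 (95% interval 0.952 to 1.41, edgeR adjusted p = 0.256). The tissue-restricted core subunits were absent at this depth: PSMA8, known from testis, had 1 read in oeSRPK1 1 and 0 in the other 5 libraries, and PSMB11, known from thymus, had 0 in all 6. A count of 0 allows up to 3 reads, which is 0.132 to 0.771 CPM depending on the library; this covers counting error only.

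No proteasome gene passed the test between shSRPK1 and NT. With edgeR 0 of 42 were called in either direction, against 9.18% of all genes tested (5.43% higher and 3.75% lower); at an unadjusted p under 0.05 there were 3 higher and 3 lower, 14.3% of the 42, against 28.8% of all genes. DESeq2 called 2 higher, PSMB8 and PSME2, and limma-voom called PSME2, while calling 5.82% and 5.34% of all genes higher. Without shSRPK1 1 edgeR called 4 higher and 2 lower, against 25.9% of all genes, and without shSRPK1 2 it called 3 higher and 3 lower, against 29%; PSMB8 and PSME2 were higher in both. The median of the 5 inducible genes was 0.28, with 4 of 5 above 0, and the median of the 31 constitutive subunits -0.04, with 18 of 31 below 0; over all genes it was 0.01.

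Between the transfected groups, 4 proteasome genes were higher in oeSRPK1 than in shSRPK1 (PSMD12, PSMB7, PSME2 and PSMB10) and 1 was lower (PSMD3), 11.9% of those tested, against 22.8% of all genes (11.5% higher and 11.3% lower). PSMD12, a lid subunit, had 117.6 and 119.9 normalised CPM in oeSRPK1, 73.2 and 83.8 in shSRPK1 and 103.9 and 96.7 in NT. Its NT libraries lay between the transfected groups without overlap, and it was 1.51-fold higher in oeSRPK1 than in shSRPK1 (95% interval 1.26 to 1.82, edgeR adjusted p = 0.0118). PSMD3, also of the lid, had 79.1 and 87.4 normalised CPM in oeSRPK1, 140.6 and 105.2 in shSRPK1 and 98.7 and 100.3 in NT, in the opposite order. It fell by 0.57 ± 0.15 on the log2 scale in oeSRPK1 against shSRPK1 (edgeR adjusted p = 0.0329), with adjusted p-values of 0.254 in oeSRPK1 against NT and 0.219 in shSRPK1 against NT. The inducible genes had a median of 0.45 and all 5 were above 0, 2 of them called; the 31 constitutive subunits had a median of -0.13. The 3 comparisons share libraries, so their values are not independent of each other.

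The calls changed with the libraries included, for proteasome genes and for all genes alike, while the log2 fold changes of called members kept their sign. In oeSRPK1 against NT, edgeR called no proteasome gene when oeSRPK1 1 was left out, PSMB8 and PSME2 when oeSRPK1 2 was left out, PSME2 without NT 1 and PSMB8 without NT 2, and no proteasome gene lower in any of these 4 fits, in which 1.94% to 6.36% of all genes were called. Without shSRPK1 1 or shSRPK1 2, which enter this comparison through the shared estimate of spread, 6 were higher and 13 lower in each; that is 45.2% of the 42, near the 41.8% and 40.5% of all genes called in these fits. Over all 15 alternatives PSMB8 kept a log2 fold change of 0.93 to 1.09, with adjusted p-values from 4.83e-09 to 0.0804, and PSME2 0.80 to 0.89, with 2e-07 to 0.0530. PSMB7 ranged from 0.56 to 0.68, PSMB10 from 0.56 to 0.87, PSME1 from 0.36 to 0.51, PSMB6 from -0.53 to -0.41, PSMD11 from -0.58 to -0.35 and PSMD1 from -0.84 to -0.54. In oeSRPK1 against shSRPK1 no proteasome gene was called without oeSRPK1 1 or without oeSRPK1 2, where 0.952% and 6.12% of all genes were, and PSMB7 and PSMD12 were the calls without NT 1 and without NT 2. Without shSRPK1 1 edgeR called 4 higher and 5 lower (21.4%, against 36.1% of all genes), and without shSRPK1 2 it called 6 higher and 13 lower (45.2%, against 38.8%). Over the alternatives PSMB7 ranged from 0.45 to 0.66 and PSMD12 from 0.47 to 0.65.

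Known regulators of the 2 gene groups were measured in the same libraries. Among 9 genes around NRF1 (NFE2L1), the transcription factor that raises constitutive proteasome genes when proteasome activity drops, 3 were higher in oeSRPK1 than in NT and none lower, against 11.2% and 9.45% of all genes tested. NFE2L1 had 861.1 and 822.0 normalised CPM in oeSRPK1, 342.2 and 482.9 in shSRPK1 and 551.8 and 536.6 in NT, a log2 fold change of 0.63 ± 0.17 against NT (edgeR adjusted p = 0.0381) and of 1.03 ± 0.17 against shSRPK1 (adjusted p = 0.00738). MAFF, a small partner protein of NRF1, had 280.9 and 266.5 in oeSRPK1, 41.9 and 57.8 in shSRPK1 and 68.1 and 76.7 in NT, 3.78-fold higher in oeSRPK1 than in NT (edgeR adjusted p = 0.000556). Both were highest in oeSRPK1 and lowest in shSRPK1, and MAFK was the third called higher (log2 fold change 0.73 against NT). In oeSRPK1 against shSRPK1 2 of the 9 were higher and BACH1, a repressor, was lower, against 11.5% and 11.3% of all genes, and in shSRPK1 against NT none was called. Of 19 assembly and associated factors outside the PSMA to PSMF names, such as POMP, PSMG3 and ADRM1, none was called in any of the 3 comparisons, with log2 fold changes from -0.51 to 0.35 in oeSRPK1 against NT.

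Some genes of interferon signalling were higher in each transfected group than in NT. Of 11 tested genes of interferon signalling, 5 were higher in oeSRPK1 than in NT, among them STAT2, NLRC5, IRF9 and JAK2, against 11.2% of all genes. In shSRPK1 against NT 4 were higher, among them STAT2, IRF9 and NLRC5, against 5.43% of all genes. None was lower in either comparison, and the receptor genes IFNGR1, IFNGR2, IFNAR1 and IFNAR2 did not pass in either. STAT2, a transcription factor that carries the signal of type I interferons to the nucleus, had 215.6 and 194.9 normalised CPM in oeSRPK1, 241.8 and 369.3 in shSRPK1 and 78.3 and 90.04 in NT. Both transfected groups lay above NT without overlap, with log2 fold changes of 1.29 ± 0.20 in oeSRPK1 (edgeR adjusted p = 0.00583) and 1.86 ± 0.20 in shSRPK1 (adjusted p = 0.00441). The shSRPK1 libraries were the highest, but oeSRPK1 against shSRPK1 did not pass the test (log2 fold change -0.57 ± 0.20, edgeR adjusted p = 0.0728). IRF1, which drives immunoproteasome genes directly, had 271.0 and 249.7 normalised CPM in oeSRPK1, 63.1 and 154.3 in shSRPK1 and 101.1 and 123.4 in NT. Its oeSRPK1 libraries lay above all others, but the log2 fold change of 1.21 ± 0.40 against NT had an edgeR adjusted p of 0.0886. NLRC5, the MHC class I transactivator, which also acts on PSMB9, had 40.6 and 37.2 in oeSRPK1, 34.7 and 57.0 in shSRPK1 and 14.3 and 14.7 in NT.

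Genes that act on proteasome products were measured in the same libraries. Of 13 tested genes for peptide loading and MHC class I, 7 were higher in oeSRPK1 than in NT with none lower, against 11.2% of all genes higher, and 7 were higher and 1 lower in shSRPK1 than in NT, against 5.43% and 3.75% of all genes. TAP1, the transporter of proteasomal peptides and the neighbour of PSMB9, had 235.2 and 216.4 normalised CPM in oeSRPK1, 129.8 and 166.3 in shSRPK1 and 58.5 and 66.2 in NT. The 3 groups did not overlap, and TAP1 was 3.62-fold higher in oeSRPK1 and 2.37-fold higher in shSRPK1 than in NT (edgeR adjusted p = 0.000486 and 0.00586). HLA-B, which presents the peptides, had 475.5 and 457.5 in oeSRPK1, 308.3 and 309.1 in shSRPK1 and 145.8 and 162.0 in NT. ERAP1, the aminopeptidase that trims the peptides, went the other way in shSRPK1, with 137.3 and 132.8 normalised CPM, against 228.5 and 210.3 in NT (log2 fold change -0.70 ± 0.12, edgeR adjusted p = 0.0176). In oeSRPK1 against shSRPK1 6 of the 13 were higher, against 11.5% of all genes, and CALR, a chaperone of the loading complex, was lower. Of 8 marker genes of leukocytes, cells that hold much immunoproteasome, 3 had enough reads to test, and the T cell marker CD3E and the pan-leukocyte gene PTPRC had no read in any library. The summed level of the 8 was 147.7 and 132.9 normalised CPM in oeSRPK1, 135.0 and 75.0 in shSRPK1 and 74.6 and 75.9 in NT, nearly all of it LAPTM5, a lysosomal membrane protein gene. ITGAM had 6.25 and 8.01 normalised CPM in oeSRPK1, 1.13 and 3.54 in shSRPK1 and 2.82 and 2.90 in NT, and HLA-DRA had 2.65 and 2.07 in oeSRPK1, 0.227 and 1.15 in shSRPK1 and 1.94 and 1.91 in NT. Both passed the test between the transfected groups, higher in oeSRPK1 (edgeR adjusted p = 0.0407 for ITGAM and 0.0491 for HLA-DRA), against 11.5% of all genes. The call of ITGAM held in 9 of 15 alternative fits and that of HLA-DRA, which was at a low level, in 5 of 14. Both calls were lost with the compared libraries alone and with all libraries thinned to the shallowest. They were also lost without any 1 of the NT or oeSRPK1 libraries. That of HLA-DRA was lost as well with DESeq2, with replicate number as a further term and without shSRPK1 1. None of the 3 was called against NT, and the part of these genes in the results above was not tested.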

How the data were processed

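RNA of T98G cells was sequenced as poly(A) libraries with paired reads of 101 bp, per the labels' protocols. Each library had 1 deposited table of raw gene counts, which are whole reads with no normalisation. FastQC, Trimmomatic, STAR 2.5.3 and hg38 were used, per the submitters' processing notes; how reads were counted (tool, annotation release, strand) is not given in the sources used here. Entries that name no gene, 23.5% to 26.7% of each table's total, were left out.

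Gene symbols came from a table of gene IDs and from GENCODE 29, which also gave lengths and overlaps. The edgeR 4.0.16 filter (10 reads, 15 in total) kept 14732 genes; PSMA8 and PSMB11 did not pass it. All 6 libraries entered 1 quasi-likelihood fit with TMM scaling and group as the only term, and p-values were adjusted over all genes tested (Benjamini-Hochberg, threshold 0.05). Alternatives were other scalings, filters, tools (limma 3.58.1 with voom, DESeq2 1.42.0), the replicate block, the libraries compared alone, and each library left out. The fit was tested on simulated data. Genes were named by rule: the inducible, catalytic and regulatory members, all called members, filtered members, and the highest and lowest of each role per kilobase, with up to 4 called genes per other list; genes outside it were chosen after their values were seen. The members and lists were chosen with earlier results of these data known. Values of some genes of these lists are not reported here.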

Additional observations from a re-analysis of the deposited data

How the results depend on the processing

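With 2 libraries a group, the number of proteasome genes called moved with most settings, and the cause was not tested. In oeSRPK1 against NT (5 higher and 3 lower), leaving out 1 library gave 0 to 6 higher and 0 to 13 lower, while 1.94% to 41.8% of all genes were called. The other settings that moved one of these counts by over 1.5 times were an adjusted p under 0.01 (2 higher, 0 lower), no filter (4 higher, 7 lower), the libraries compared alone (7 higher, 13 lower, with 44.2% of all genes called) and, added after seeing the data, thinning all libraries to 3891549 reads (4 higher, 1 lower); upper-quartile scaling and limma-voom gave 5 higher and 4 lower each. In shSRPK1 against NT (0 and 0), the number higher was 2 with no filter, 1 with a stricter filter, 2 with DESeq2 and 1 with limma-voom, and leaving out 1 library gave 0 to 4 higher and 0 to 3 lower, with 0.182% to 29% of all genes called. In oeSRPK1 against shSRPK1 (4 higher and 1 lower), an adjusted p under 0.01 gave 0 and 0, no filter 7 lower, the libraries compared alone 2 higher and 0 lower, thinning 0 lower, and leaving out 1 library 0 to 6 higher and 0 to 13 lower, with 0.952% to 38.8% of all genes called.

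Over all tested genes, same-numbered libraries did not deviate together (correlations -0.02 to 0.02). This cannot show whether they were handled in pairs, because an effect on few genes would hardly move such a correlation. The replicate block left 1 gene lower in oeSRPK1 against NT, PSMD1, and moved no other count of members by over 1.5 times.

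When 1 library was left out, the sign turned for 12 of 42 proteasome genes in oeSRPK1 against NT, 17 in shSRPK1 against NT and 12 in oeSRPK1 against shSRPK1, none of them called in that comparison with all libraries. The range over those fits is given for the inducible, catalytic and regulatory genes among them. In oeSRPK1 against NT it was -0.45 to 1.48 for PSMB9, -0.30 to 0.0027 for PSME3 and -0.0010 to 0.22 for PSME4. In shSRPK1 against NT it was -0.36 to 0.75 for PSMB9, -0.27 to 0.17 for PSMB10, -0.22 to 0.050 for PSMB6, -0.065 to 0.13 for PSMB7 and -8.8e-04 to 0.26 for PSMF1. In oeSRPK1 against shSRPK1 it was -0.72 to 1.20 for PSMB9, -0.020 to 0.29 for PSME3 and -0.083 to 0.17 for PSMF1, and limma-voom gave -0.10 for PSMB9. The log2 ratio of PSMB9 to PSMB6 ran from -0.40 to 0.98 in shSRPK1 against NT and from -0.20 to 1.63 in oeSRPK1 against shSRPK1. The log2 ratio of PSMB10 to PSMB7 ran from -0.40 to 0.23 in shSRPK1 against NT and from -0.13 to 0.50 in oeSRPK1 against shSRPK1. That of PSMB8 to PSMB5 kept its sign in these fits, between 1.26 and 1.55 in oeSRPK1 against NT.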

Other observations

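Ubiquitin, the tag that sends proteins to the proteasome, is made from several genes, of which UBB and RPS27A are given here. UBB, a polyubiquitin gene, had 457.5 and 437.4 normalised CPM in oeSRPK1, 350.4 and 289.5 in shSRPK1 and 462.3 and 435.7 in NT, with a log2 fold change of 0.48 ± 0.14 between the transfected groups (oeSRPK1 over shSRPK1, edgeR adjusted p = 0.0387). RPS27A, a fusion of ubiquitin with a ribosomal protein, had 534.6 and 588.3 in oeSRPK1, 459.8 and 447.8 in shSRPK1 and 705.9 and 698.1 in NT. It fell by 0.63 ± 0.12 in shSRPK1 against NT (edgeR adjusted p = 0.0245). UBA7, which activates the interferon-induced ubiquitin-like protein ISG15, had 94.9 and 90.0 in oeSRPK1, 92.6 and 89.1 in shSRPK1 and 56.1 and 57.1 in NT. The transfected groups overlapped each other and lay above NT, with log2 fold changes of 0.71 ± 0.11 in oeSRPK1 (edgeR adjusted p = 0.00474) and 0.68 ± 0.11 in shSRPK1 (adjusted p = 0.0120).

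TAP2, the partner of TAP1 in the peptide transporter, had at most 0.604 normalised CPM in any library. Like PSMB8 and PSMB9, it lies in the MHC region of chromosome 6 (32821833 to 32838780, minus strand). The sources used here do not say whether alternate haplotype sequences were in the alignment. Their part in this level was not tested, and a low count here does not show that the cells lacked TAP2 RNA. TAP2 was chosen after its values were seen.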
